A study of Mus musculus with 8 samples.

Results

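The 10 genes described here, Cldn5, Ocln, Pecam1, Cdh5, Flt1, Kdr, Tek, Tie1, Abcb1a and Slco1a4, are markers of brain endothelium and of the blood-brain barrier. They were chosen by symbol in the platform's probe annotation, which gave 1 probe for each. All 10 passed the filter on dim probes, among 21583 probes tested, of which 19122 had a symbol, 17863 symbols in all. The arrays measured RNA of male C57Bl/6J mouse brain, 1 array per mouse: 2 mice given water and taken at day 0, 3 mice given trehalose, a disaccharide of glucose, for 1 day, and 3 mice given it for 10 days. All were 9 weeks old by the labels, lived 3 to a cage, and were fasted and then perfused with heparinised buffer. Whether the RNA came from cortex, as the treatment notes have it, or from the whole left hemisphere, as the design has it, is not settled by the sources used here. No water mice were sampled at 1 or 10 days, so trehalose and time of sampling cannot be told apart. Cage mates are not identified, and p-values measure the spread among these mice.

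Endothelial cells line the brain's vessels and form the blood-brain barrier. Tight junction strands seal the gaps between neighbouring cells, adherens junctions hold the cells together, and carriers and efflux pumps in the cell membranes decide which solutes cross. The barrier depends on signals from the surrounding tissue, among them vascular endothelial growth factor (VEGF), angiopoietins and Wnt ligands, and on pericytes and astrocyte end-feet. In RNA of whole tissue, fewer endothelial cells and less RNA per endothelial cell cannot be told apart.

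RefSeq promoter windows (GRCm38.p6, 250 bases before the annotated start to 50 after) were matched for 8 of the 10 genes, with 2 starts for Ocln, and no window was matched for Pecam1 or Cdh5. The start of a window need not be the outer 5′ end of the RefSeq gene. That end lay at 147726438 for Flt1, 75979072 for Kdr and 94739086 for Tek. The windows of Flt1 and Kdr therefore lay wholly inside their genes, and that of Tek largely. Windows of the 4 receptor tyrosine kinases are shown because these genes form 2 receptor pairs, Flt1 with Kdr and Tek with Tie1, whose levels are compared below. Each runs 5′ to 3′ on the gene's strand, and capitals mark AGGAAG or CGGAAG on either strand, letters found in binding sites of ETS factors, a transcription factor family with members that act in endothelium.
Flt1, chr5:147725962-147726261, minus strand: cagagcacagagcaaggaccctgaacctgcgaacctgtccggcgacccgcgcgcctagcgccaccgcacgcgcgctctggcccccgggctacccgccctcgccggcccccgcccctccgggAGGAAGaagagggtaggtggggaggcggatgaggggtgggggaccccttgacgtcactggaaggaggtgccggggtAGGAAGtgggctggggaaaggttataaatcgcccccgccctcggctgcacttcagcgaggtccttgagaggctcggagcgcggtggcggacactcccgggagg
Kdr, chr5:75978406-75978705, minus strand: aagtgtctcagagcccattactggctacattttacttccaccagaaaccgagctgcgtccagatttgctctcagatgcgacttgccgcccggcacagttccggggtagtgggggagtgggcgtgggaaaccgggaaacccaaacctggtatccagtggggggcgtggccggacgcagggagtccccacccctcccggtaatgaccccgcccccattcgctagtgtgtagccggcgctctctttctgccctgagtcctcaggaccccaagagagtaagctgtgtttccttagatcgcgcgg
Tek, chr4:94739039-94739338, plus strand: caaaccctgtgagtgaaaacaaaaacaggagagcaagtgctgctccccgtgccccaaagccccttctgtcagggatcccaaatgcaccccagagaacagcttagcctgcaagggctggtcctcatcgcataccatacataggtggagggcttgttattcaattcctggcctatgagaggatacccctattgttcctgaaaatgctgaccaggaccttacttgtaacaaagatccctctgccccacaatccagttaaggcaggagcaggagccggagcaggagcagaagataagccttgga
Tie1, chr4:118489800-118490099, minus strand: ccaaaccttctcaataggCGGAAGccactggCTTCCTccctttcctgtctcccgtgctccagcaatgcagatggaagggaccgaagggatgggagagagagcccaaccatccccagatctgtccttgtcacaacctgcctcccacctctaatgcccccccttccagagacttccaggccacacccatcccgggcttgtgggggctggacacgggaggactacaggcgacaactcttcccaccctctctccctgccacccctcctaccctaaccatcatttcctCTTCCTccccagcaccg

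Flt1 held 2 such matches, at -129 to -124 and -53 to -48 from the start, and Tie1 held 3, at -232 to -227, -219 to -214 and 33 to 38. Kdr and Tek held none. Over the members' 9 windows 4 held a match, 1 window each for Flt1, Tie1, Abcb1a and Slco1a4, against 46.5% of all 32851 mouse promoter windows. A GC box, GGGCGG on either strand, lay in 5 of the 9 windows and in 35.7% of all. TATAAA lay in 1 of the 9, that of Flt1, and in 13.6% of all. A match describes letters in the window only.

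Levels below are log2 intensities after background correction with an added offset of 50 and then quantile normalization. A level can be set only against the same probe on another array. Normalization came after the offset, so folds given below with the offset taken off are approximate. The offset shrinks the changes of dim probes. In the water mice it made up 8.22% and 8.28% of the mean signal of Cldn5 and Flt1, 14.1% of that of Slco1a4 and 25.8% of that of Abcb1a. Its share was 30.7% for Kdr, 50.6% for Ocln, 51.8% for Pecam1, 63.0% for Tek and for Tie1, and 82.0% for Cdh5. From the mean of the water mice, a doubling of the signal under the offset would read as 0.94 for Cldn5 but as 0.24 for Cdh5. Spot medians relative to the detection limit, which is the blank-spot mean plus 2 SD, had medians over the 8 arrays of 16.9 for Flt1, 16.6 for Cldn5, 9.55 for Slco1a4 and 5.04 for Abcb1a. They were 3.43 for Kdr, 2.36 for Ocln, 2.33 for Pecam1, 1.67 for Tie1, 1.61 for Tek and 1.08 for Cdh5. Cdh5 lay above the limit on 7 of the 8 arrays and the other 9 genes on all 8. Of all 23473 probes 19699 lay above it on all 8 arrays, so passing this limit does not set the members apart. Flt1, Cldn5, Slco1a4 and Abcb1a lay at 4.95 times the limit or more in every mouse. Detection is less certain for Tek, Tie1 and Cdh5, which lay nearest the limit.

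No member changed past the threshold at either time. With limma's moderated test and Benjamini-Hochberg adjustment over all 21583 probes, 0 of the 10 genes passed at 1 day against water, at 10 days against water and at 10 days against 1 day, and 0% of all probes passed in each. At an unadjusted p under 0.05 the members also numbered 0 of 10 in each comparison, beside 3.65%, 2.00% and 3.50% of all probes in that order. The 95% interval lay within 0.58 on either side of 0 on the log2 scale, a 1.5-fold change of the offset signal, for 9 of 10 genes at 1 day against water, all but Kdr, and for all 10 genes in the other 2 comparisons. For dim genes such an interval still allows a larger change of the signal itself. The estimates at 1 day lay below water for 9 of 10 genes, with a median of -0.06 against -0.0003 over all tested probes. That count rested on single mice, since it was 6 of 10 without mouse 1 of 1 day and 6 of 10 without water mouse 2. At 10 days they lay below water for 6 genes and above it for 4, with a median of -0.01 against -0.002 over all. At 10 days 8 of 10 estimates lay above those of 1 day, with a median of 0.05 against -0.002. Each pair of these comparisons shares a group of mice. The plot of changes with intervals shows how wide each estimate was.

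**Figure D1:**
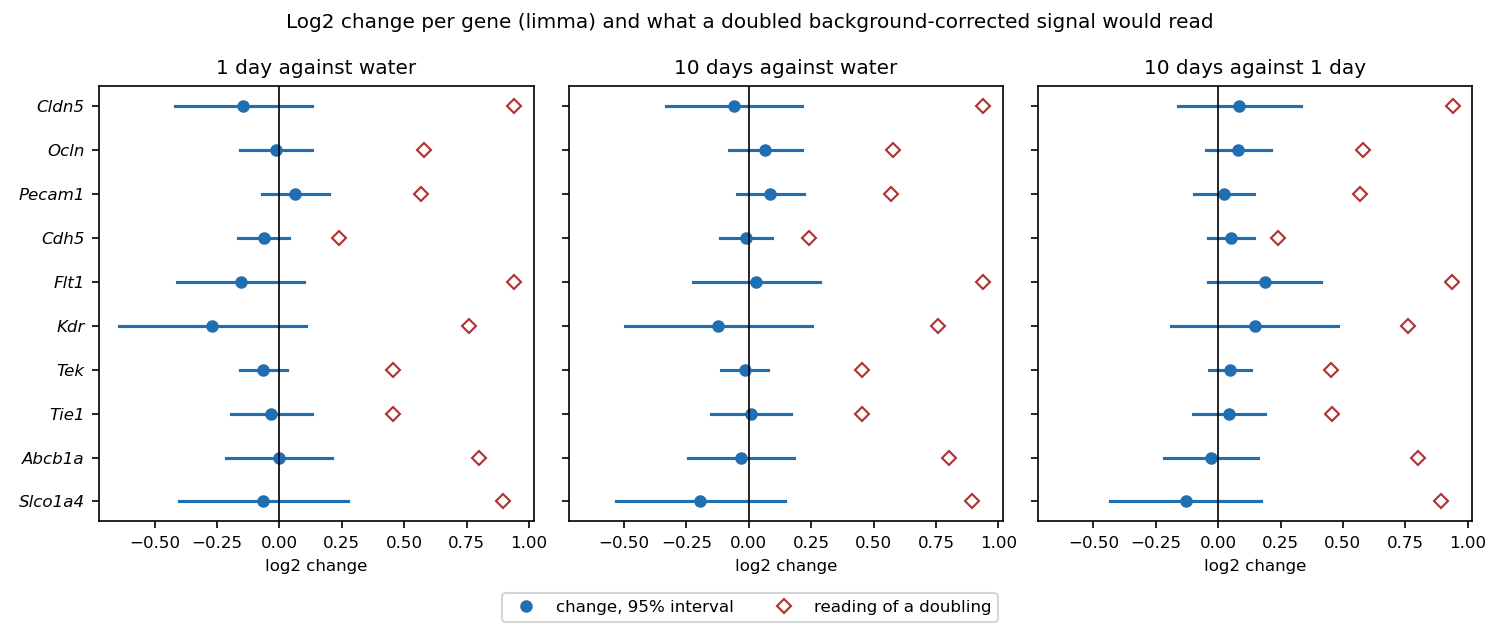
Log2 change of each gene in 3 comparisons (x axis, log2 units), as a point with its 95% interval from limma, with a diamond where a doubling of the background-corrected signal would read once the offset of 50 is added. The diamonds start from the mean of the water mice in all 3 panels. Every interval crosses 0, and the diamonds of Cdh5, Tek and Tie1 sit closest to 0.

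Cldn5, the main claudin of brain endothelium, which sets the barrier's tightness for small solutes, measured 9.32 and 9.18 in the water mice, 9.06, 9.32 and 8.92 at 1 day, and 9.31, 9.18 and 9.07 at 10 days. The highest values of all 3 groups were nearly equal, and the groups overlapped throughout. The lowest single array was mouse 3 of 1 day. Cldn5 differed by -0.15 at 1 day against water (SE 0.12, 95% interval -0.42 to 0.13), by -0.06 at 10 days against water (-0.33 to 0.21) and by 0.09 at 10 days against 1 day (-0.16 to 0.33). Leaving out 1 mouse moved the first of these between -0.25 (without mouse 2 of 1 day) and -0.06 (without mouse 3 of 1 day), and the last between -0.004 (without mouse 3 of 1 day) and 0.19 (without mouse 2 of 1 day).

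Ocln encodes occludin, a membrane protein of tight junctions that is also made in epithelia. It measured 6.58 and 6.68 in water mice, 6.53, 6.68 and 6.63 at 1 day, and 6.68, 6.77 and 6.63 at 10 days. The 3 groups overlapped, and mouse 2 of 10 days was highest. Its differences were -0.01 at 1 day against water (95% interval -0.16 to 0.13), 0.07 at 10 days against water (-0.08 to 0.21) and 0.08 at 10 days against 1 day (-0.05 to 0.21).

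Pecam1 encodes an adhesion molecule of endothelial cell contacts, also present on platelets and leukocytes. It measured 6.59 and 6.60 in water mice, 6.68, 6.64 and 6.65 at 1 day, and 6.77, 6.70 and 6.57 at 10 days. All 3 arrays of 1 day lay above both water arrays, which were almost equal, while at 10 days mouse 3 lay below them. The difference was 0.06 at 1 day against water (SE 0.06, 95% interval -0.07 to 0.20, unadjusted limma p 0.308) and 0.09 at 10 days against water (-0.05 to 0.22, unadjusted limma p 0.173). Without mouse 3 of 10 days the second was 0.14, and without mouse 1 of 10 days it was 0.04. It was 0.02 at 10 days against 1 day (-0.10 to 0.14). Pecam1 and Tek were the 2 members of 10 whose groups did not overlap at 1 day against water, beside 18.2% of all probes.

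Cdh5 encodes VE-cadherin, the cadherin of endothelial adherens junctions. It measured 5.96 and 5.91 in water mice, 5.92, 5.87 and 5.81 at 1 day, and 5.91, 5.95 and 5.90 at 10 days. Mouse 3 of 1 day, the lowest array, was the one on which the spot lay under the detection limit, at 0.930 of it. The differences were -0.06 at 1 day against water (95% interval -0.17 to 0.04), -0.01 at 10 days against water (-0.11 to 0.09) and 0.05 at 10 days against 1 day (-0.04 to 0.14). With the offset taken off, the fold at 1 day against water was 0.760 with an interval of 0.394 to 1.15, and at 10 days against water it was 0.954 with an interval of 0.575 to 1.36. This probe therefore left room for a large fall as well as a small rise at 1 day.

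**Figure D2:**
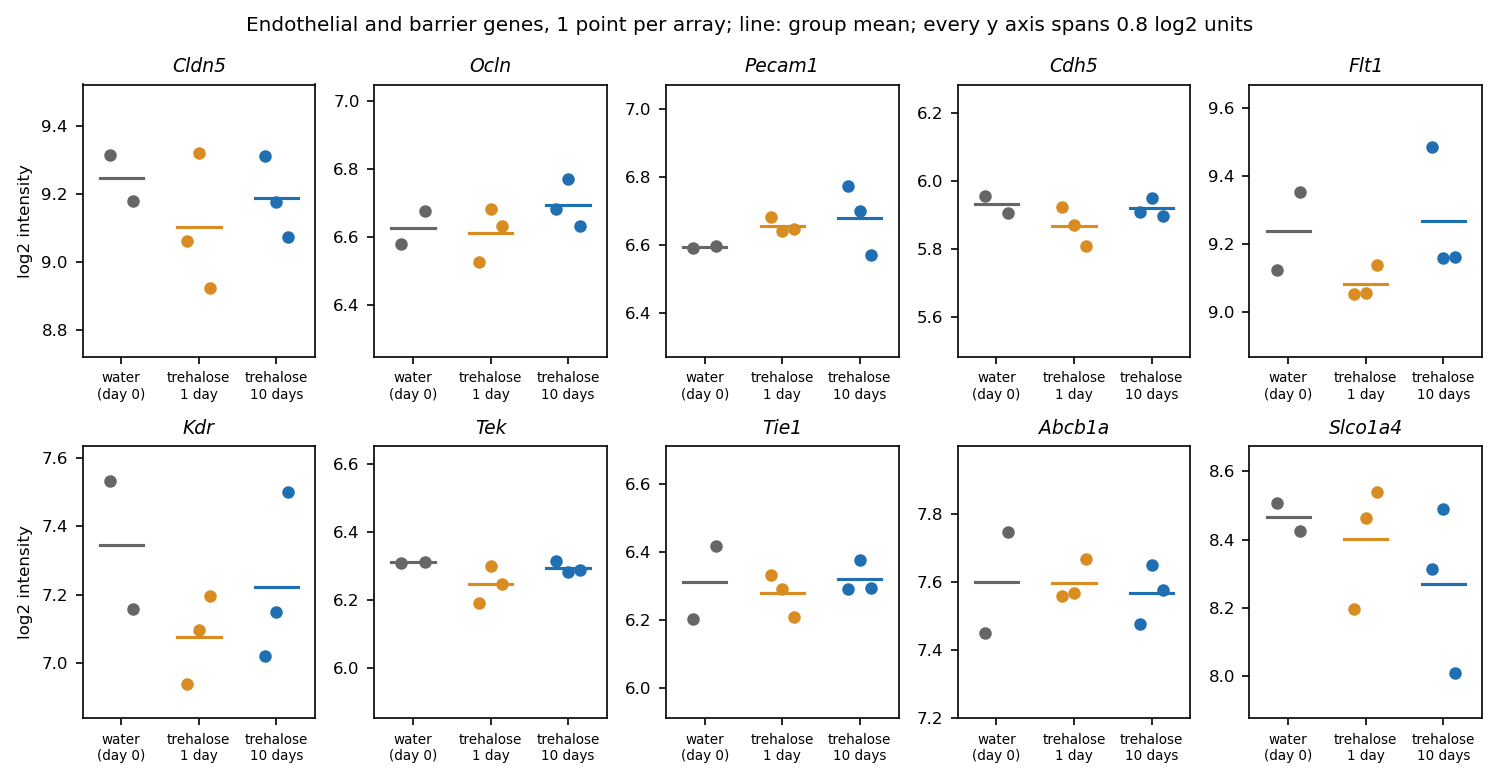
Log2 intensity of each gene on each array (y axis; every panel spans 0.8 log2 units) by group (x axis: water at day 0, trehalose 1 day, trehalose 10 days), with a line at the group mean. Points of different groups overlap in nearly every panel; Kdr, Slco1a4, Flt1 and Cldn5 are spread widest and Tek and Cdh5 least.

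Of the VEGF receptors, Kdr gave the largest estimate at 1 day against water and Flt1 the largest at 10 days against 1 day among the 10 genes, with wide intervals. Flt1 encodes VEGFR1, which binds VEGF tightly, signals weakly and in its soluble form holds the ligand back. It measured 9.12 and 9.35 in water mice, 9.05, 9.06 and 9.14 at 1 day, and 9.48, 9.16 and 9.16 at 10 days. The 3 arrays of 10 days lay above the 3 of 1 day, with mouse 1 well above the rest, and water mouse 1 fell inside the range of 1 day. At 10 days against 1 day Flt1 differed by 0.19 (SE 0.10, 95% interval -0.04 to 0.41, unadjusted limma p 0.0945), a 1.14-fold difference of the offset signal. It was the 1 member of 10 whose groups did not overlap there, beside 8.40% of all probes. Without mouse 1 of 10 days that difference was 0.08. Flt1 differed by -0.16 at 1 day against water (-0.41 to 0.10) and by 0.03 at 10 days against water (-0.22 to 0.28). The first of these was -0.04 without water mouse 2 and -0.27 without water mouse 1.

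Kdr encodes VEGFR2, the receptor through which VEGF drives endothelial growth and permeability. It measured 7.53 and 7.16 in water mice, 6.94, 7.10 and 7.20 at 1 day, and 7.02, 7.15 and 7.50 at 10 days. Water mouse 1 and mouse 3 of 10 days stood high together, and the other 6 arrays lay between 6.94 and 7.20. The difference at 1 day against water was -0.27 (SE 0.16, 95% interval -0.64 to 0.10, unadjusted limma p 0.134), or 0.830-fold of the offset signal. The water mice themselves differed by more than that. Without water mouse 2 the difference was -0.46, and without water mouse 1 it was -0.08. Taking the offset off gave a fold of 0.754 with an interval of 0.481 to 1.11. Kdr differed by -0.12 at 10 days against water (-0.50 to 0.25) and by 0.15 at 10 days against 1 day (-0.19 to 0.48). The first of these turned to 0.07 without water mouse 1 and was -0.31 without water mouse 2 and -0.26 without mouse 3 of 10 days. The second was 0.01 without mouse 3 of 10 days and 0.25 without mouse 1 of 10 days. Of the members, 0 of 10 had groups that did not overlap at 10 days against water, beside 13.4% of all probes.

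Tek encodes TIE2, the receptor of the angiopoietins, which keep vessels quiescent or loosen them. It measured 6.31 in both water mice, 6.19, 6.30 and 6.25 at 1 day, and 6.31, 6.28 and 6.29 at 10 days. All 3 arrays of 1 day lay below the water arrays, mouse 2 by very little, and those of 10 days lay close to water. Tek differed by -0.06 at 1 day against water (SE 0.04, 95% interval -0.16 to 0.03, unadjusted limma p 0.152), by -0.02 at 10 days against water (-0.11 to 0.08) and by 0.05 at 10 days against 1 day (-0.04 to 0.13). With the offset taken off, the first of these was a fold of 0.882 with an interval of 0.719 to 1.06.

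Tie1 encodes a receptor that pairs with TIE2 and modulates its signal. It measured 6.20 and 6.42 in water mice, 6.33, 6.29 and 6.21 at 1 day, and 6.29, 6.37 and 6.29 at 10 days. The lowest and the highest array were both water mice, so both trehalose groups lay within the water range. The differences were -0.03 at 1 day against water (95% interval -0.19 to 0.13), 0.01 at 10 days against water (-0.15 to 0.17) and 0.04 at 10 days against 1 day (-0.10 to 0.19).

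Abcb1a encodes P-glycoprotein, the efflux pump that returns many drugs to the blood. It measured 7.45 and 7.75 in water mice, 7.56, 7.57 and 7.67 at 1 day, and 7.47, 7.65 and 7.58 at 10 days. Here too the water mice held both the lowest and the highest array. Abcb1a differed by -0.002 at 1 day against water (95% interval -0.21 to 0.21), by -0.03 at 10 days against water (-0.24 to 0.18) and by -0.03 at 10 days against 1 day (-0.22 to 0.16).

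Slco1a4 encodes an organic anion transporting polypeptide of brain endothelium that carries bile acids, steroid conjugates and some drugs. It measured 8.51 and 8.42 in water mice, 8.20, 8.46 and 8.54 at 1 day, and 8.31, 8.49 and 8.01 at 10 days. Mouse 3 of 10 days was the lowest and mouse 1 of 1 day the next, while the other 6 arrays lay between 8.31 and 8.54. The difference was -0.06 at 1 day against water (95% interval -0.40 to 0.27) and -0.19 at 10 days against water (SE 0.15, -0.53 to 0.14, unadjusted limma p 0.220). Without mouse 3 of 10 days the second was -0.06, and without mouse 2 of 10 days it was -0.30. At 10 days against 1 day it was -0.13 (-0.43 to 0.17), which became 0.001 without mouse 3 of 10 days and -0.24 without mouse 2.

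Set in order of group means, 1 day was lowest for 7 of the 10 genes, 10 days for Abcb1a and Slco1a4, and water for Pecam1. Water was highest for 6 genes and 10 days for 4. In no gene did neighbouring groups in that order differ past the threshold. The pooled SD inside groups was 0.21 for Kdr, 0.19 for Slco1a4, 0.15 for Cldn5 and 0.14 for Flt1, which placed these at percentiles 97.8, 96.8, 93.2 and 91.2 among all tested probes. It was 0.12 for Abcb1a, 0.08 for Tie1, 0.07 for Ocln and for Pecam1, and 0.04 for Cdh5 and for Tek, whose changes the offset shrinks most. The median over the 10 genes was 0.10, against 0.06 over all probes. These rankings are over probes of every brightness, and the offset narrows the spread of dim probes. A high percentile of a bright probe therefore does not separate brightness from spread among mice.

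The genes did not move as 1 block across mice. Deviations from each gene's own mean averaged 0.03 and 0.05 in the water mice, -0.08, -0.001 and -0.03 at 1 day, and 0.03, 0.04 and -0.03 at 10 days. Mouse 1 of 1 day was the lowest array by this measure, yet 3 of its 10 genes lay above their means. In water mouse 2 and in mouse 2 of 10 days 8 genes lay above. Mouse 3 of 10 days combined the second highest Kdr with the lowest Slco1a4. Summed over the 10 probes, intensity with the offset ranged from 2326 to 2358 in water mice, from 2079 to 2269 at 1 day and from 2151 to 2408 at 10 days. These sums are carried by the bright probes, Cldn5, Flt1 and Slco1a4.

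**Figure D3:**
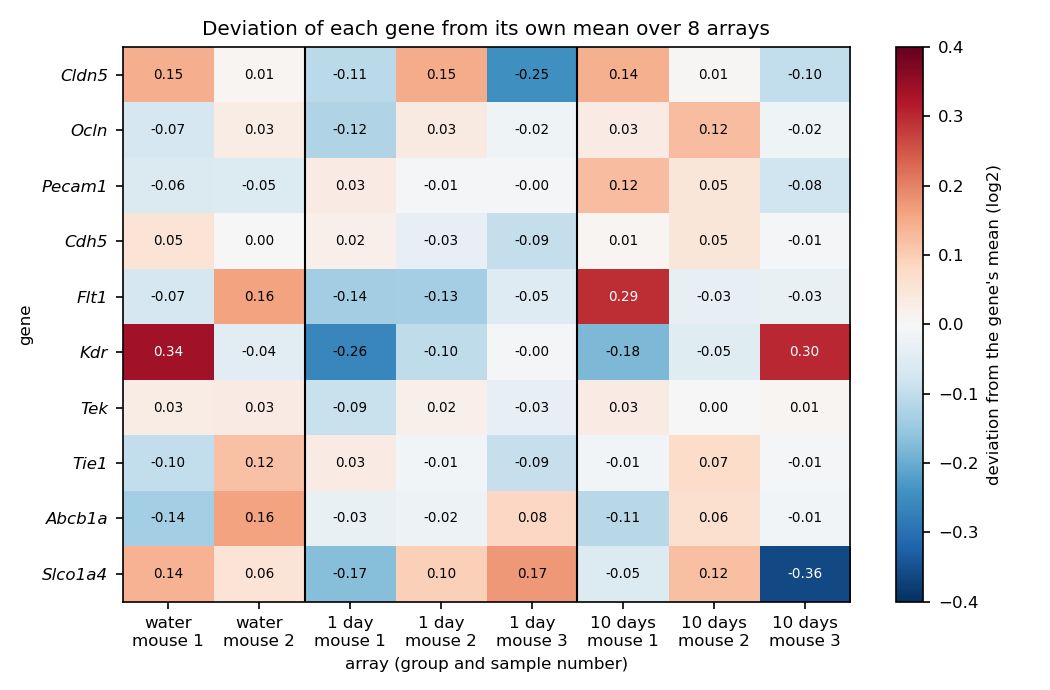
Deviation of each gene (rows) from its own mean over the 8 arrays (columns, by group and sample number), in log2 units. The 4 strongest cells are Kdr in water mouse 1 and in mouse 3 of 10 days, Flt1 in mouse 1 of 10 days, and Slco1a4 (negative) in mouse 3 of 10 days, and no column is of a single colour.

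Over the 45 pairs of genes, Pearson's r across the 8 arrays ranged from -0.735 to 0.686 with a median of 0.111, and 31 pairs lay above 0. The lowest adjusted exact permutation p over the 45 pairs was 0.974 for r and 0.968 for Spearman's rho. The most opposed pair was Pecam1 and Kdr, with r = -0.735 (exact permutation p 0.0401) and rho = -0.762 (exact permutation p 0.0368) over 8 arrays. That r was -0.656 without the 2 arrays farthest from the median of Pecam1 alone and -0.798 after removing group means. The closest pair was Cldn5 and Tek, with r = 0.686 (exact permutation p 0.0536) and rho = 0.738 (exact permutation p 0.0458). It had r = 0.697 without the 2 arrays farthest from the median of Cldn5 alone and 0.605 after removing group means. The receptor pairs whose promoters are shown above had r = -0.175 for Flt1 and Kdr and 0.030 for Tek and Tie1.

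Each sample's description opens with a number from 1 to 8 whose meaning the labels do not give. Across the 8 arrays its correlation with the members ranged from r = -0.592 for Pecam1 to 0.611 for Abcb1a, and the smallest adjusted exact permutation p over the 10 genes was 0.493 for r and 0.458 for rho. Abcb1a had an exact permutation p of 0.110 for r and a rho of 0.738 (exact permutation p 0.0458), and without numbers 1 and 8 its r was 0.891. Cldn5 had r = -0.490 over all arrays and -0.870 without those 2. The probes most like the members' mean profile, of 19112 with a symbol and not in the set, were those of Glt8d2 (r = 0.978), Col5a1 (0.959), Ccl22 (0.957), Nppc (0.956) and Cracdl (0.954). These are the highest of many correlations over 8 arrays of a profile that spans little, and none of the 5 belongs to a vascular list below.

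Among further lists of vascular genes, 0 probes passed limma's adjusted threshold in any comparison, beside 0% of all probes. Among 27 probes of 26 other endothelial genes, such as Erg, Emcn and Esam, 11 estimates lay above 0 and 16 below at 1 day against water, and 12 above and 15 below at 10 days against water. The list medians were -0.006 and -0.007. No probe had an unadjusted p under 0.05 in these, and 3 and 2 of the 27 had groups that did not overlap, beside 18.2% and 13.4% of all probes. At 10 days against 1 day 18 lay above 0 and 9 below, with a median of 0.02. There 0 of the 27 had an unadjusted p under 0.05, and 3 had groups that did not overlap, beside 8.40% of all probes. Cd34, a surface sialomucin of endothelium and blood progenitors, had the lowest p at 1 day. It measured 8.30, 8.19 and 7.87 at 1 day, against 8.43 in both water mice, a difference of -0.31 (SE 0.16, unadjusted limma p 0.0895). At 10 days Cd34 measured 8.04, 8.53 and 8.39, on both sides of water.

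Of 21 further junction genes 18 were annotated and tested. At 1 day against water 11 lay above 0 and 7 below, with a median of 0.006, and at 10 days against water 10 lay above and 8 below, with a median of 0.03. Jam2, a junctional adhesion molecule, measured 7.25, 7.20 and 7.21 at 1 day, against 7.10 and 7.08 in water mice, a difference of 0.13 (SE 0.06, unadjusted limma p 0.0636). The 3 arrays of 1 day lay above both water arrays, and at 10 days mouse 2 lay between them. No junction probe had an unadjusted p under 0.05 in any comparison.

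The transport list, 27 probes of 25 genes, held 9 estimates above 0 and 18 below at 1 day against water, and 14 above and 13 below at 10 days against water. An unadjusted p under 0.05 was met by 1 of the 27 probes in each of these and by 3 at 10 days against 1 day, beside 3.65%, 2.00% and 3.50% of all probes in that order. The genes named next had the lowest p of the list in 1 comparison each, and all 3 were rises. Mfsd2a encodes the carrier of lysophosphatidylcholine with docosahexaenoic acid that also keeps endothelial transcytosis low. It measured 8.53, 8.49 and 8.43 at 10 days, against 8.35 and 8.28 in water mice, a difference of 0.17 (SE 0.06, unadjusted limma p 0.0261). All 3 arrays of 10 days lay above water, and those of 1 day, at 8.25, 8.29 and 8.44, lay on both sides. Slc3a2, the heavy chain of the large amino acid carrier, measured 9.65, 9.85 and 9.61 at 1 day, against 9.51 and 9.56 in water mice, a difference of 0.17 (SE 0.07, unadjusted limma p 0.0477). Lrp1, a clearance receptor also made by neurons, glia and mural cells, measured 9.50, 9.57 and 9.45 at 10 days, against 9.44, 9.30 and 9.25 at 1 day, a difference of 0.18 (SE 0.06, unadjusted limma p 0.0173). The next lowest p against water belonged to falls in both comparisons. Slco1c1 differed by -0.14 at 1 day (unadjusted limma p 0.0756) and Slc6a6 by -0.27 at 10 days (unadjusted limma p 0.0552). Of the 3 probes under 0.05 at 10 days against 1 day, 2 were rises and 1 was a fall. None of these passed over all probes.

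Ligands and receptors around the 4 member kinases gave 17 probes, Vegfa, Angpt1 and Angpt2 among them. At 1 day against water 9 lay above 0 and 8 below, at 10 days against water 11 and 6, and none had an unadjusted p under 0.05. The Wnt list of barrier induction had 19 probes for 17 of 20 genes, with 8 above and 11 below at 1 day, and 10 above and 9 below at 10 days. Of the 19 probes, 1 had an unadjusted p under 0.05 at 1 day against water, 0 at 10 days against water and 2 at 10 days against 1 day. Of all probes 3.65%, 2.00% and 3.50% did so in that order. Tnfrsf19, a receptor of the tumour necrosis factor family, measured 8.26, 8.25 and 8.33 at 1 day, against 8.38 in both water mice, a difference of -0.10 (SE 0.04, unadjusted limma p 0.0308). At 10 days it measured 8.42, 8.39 and 8.35, above 1 day by 0.11 (SE 0.04, unadjusted limma p 0.0169). Adgra2, a coreceptor for Wnt7 ligands in brain endothelium, measured 6.86, 6.77 and 6.76 at 10 days, against 6.91, 6.89 and 7.03 at 1 day, a difference of -0.15 (SE 0.06, unadjusted limma p 0.0338). Its water values, 6.96 and 6.80, spanned the gap. Among 12 Notch pathway probes, 4 lay above 0 and 8 below at 1 day, and 5 and 7 at 10 days, and 1 had an unadjusted p under 0.05, at 1 day against water. Hes1, a Notch target in many cell types, measured 6.54, 6.69 and 6.81 at 1 day, against 6.44 and 6.51 in water mice, a difference of 0.21 (SE 0.08, unadjusted limma p 0.0322).

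Genes of endothelial inflammation, 12 probes with Il6 below the filter, had 5 estimates above 0 and 7 below at both times against water. Ptgs2, which encodes cyclooxygenase 2 and is made by neurons as well as activated endothelium, measured 6.78, 6.86 and 7.04 at 10 days, against 6.55 and 6.70 in water mice, a difference of 0.27 (SE 0.10, unadjusted limma p 0.0263). Pericyte genes, 15 probes, had 6 above 0 and 9 below at both times. Pdgfrb, the receptor that recruits pericytes, measured 7.28, 7.24 and 7.17 at 10 days, against 7.31 and 7.37 in water mice, a difference of -0.11 (SE 0.04, unadjusted limma p 0.0301). These were the only probes of the inflammation and pericyte lists with an unadjusted p under 0.05, each at 10 days against water, and none reached it at 10 days against 1 day. Of 10 smooth muscle probes 1 reached it in each comparison with water, of 11 fibroblast probes 1 at 1 day against water, 0 at 10 days against water and 1 at 10 days against 1 day, and of 14 basement membrane probes 0 in all 3. The shares of all probes were 3.65% at 1 day against water, 2.00% at 10 days against water and 3.50% between the times. The fibroblast probe was Dcn both times, at 0.27 (unadjusted limma p 0.0315) and -0.28 (unadjusted limma p 0.0176). The medians of the 11 vascular lists other than the 10 members lay between -0.03 and 0.03 in each comparison, as the plot of lists shows.

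**Figure D4:**
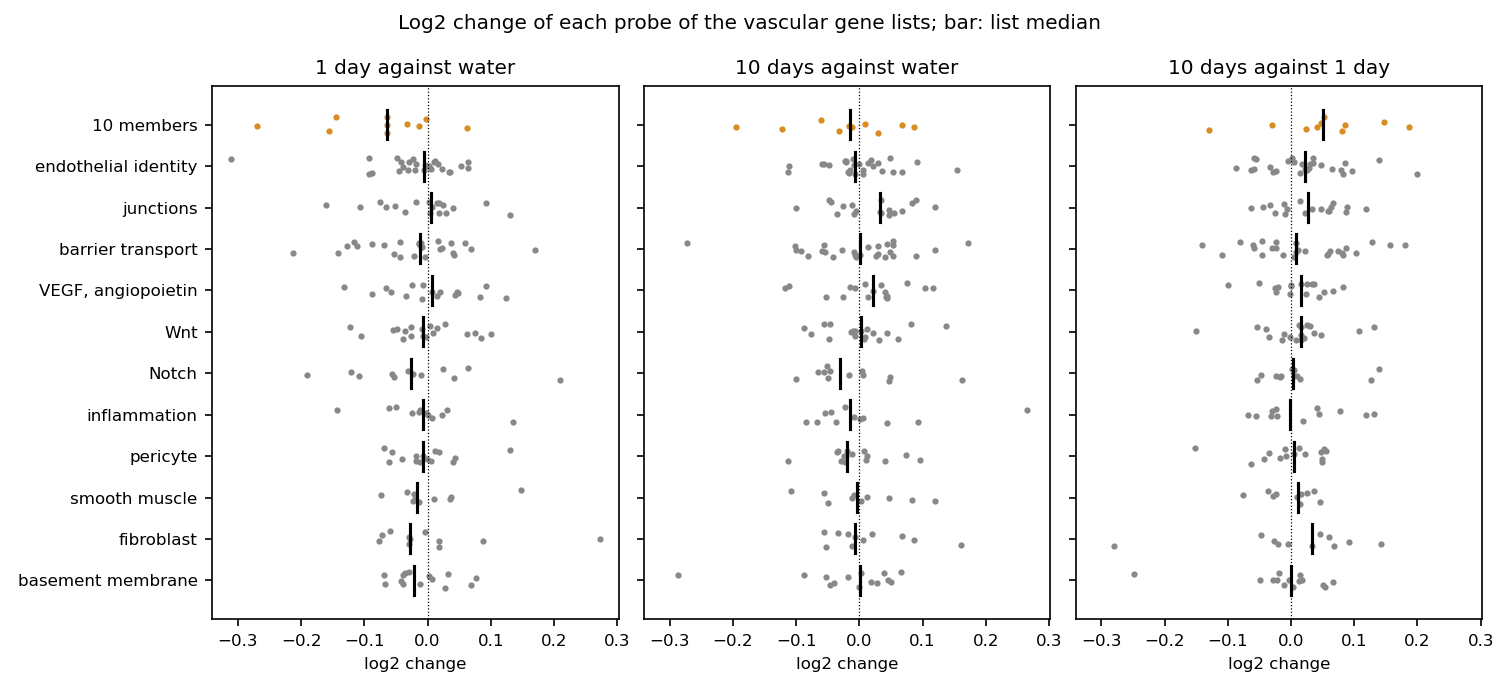
Log2 change of each probe (x axis, 1 point per probe) in the 10 members and 11 vascular lists (rows) for 3 comparisons, with a bar at the list median. The members' median lies at -0.06 at 1 day against water, while the medians of the other lists lie close to 0.

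Markers of brain cell types other than endothelium were also read, and probes of the neuronal genes Snap25 and Slc17a7 measured 12.54 to 12.67 and 9.33 to 9.57 over the 8 arrays. Markers of choroid plexus and ependyma lay above water for 8 of 9 probes at 1 day (median 0.12) and for 9 of 9 at 10 days (median 0.14). Their summed intensity ranged from 26196 to 30667 in water mice, from 25092 to 34028 at 1 day and from 30645 to 30723 at 10 days. Most of each sum came from Ttr, which measured 14.55, 14.99 and 14.62 at 1 day and 14.85 on every array of 10 days. Ttr differed by -0.01 at 1 day against water. Aqp1 and Foxj1 differed there by 0.20 and 0.16 (unadjusted limma p 0.0216 and 0.0368). Blood cell markers lay above water for 10 of 14 probes at 1 day (median 0.09) and for 8 of 14 at 10 days (median 0.02), with sums of 1776 to 3533, 2977 to 6049 and 1668 to 6660 in water, 1 day and 10 days. These sums were carried by 4 haemoglobin probes, singled out after their values were seen, which lay above water by 0.75 to 1.17 at 1 day (lowest unadjusted limma p 0.211) and by 0.27 to 0.37 at 10 days (lowest 0.683). Hba-a2 measured 10.21 and 8.48 in water mice, 11.27, 10.53 and 9.74 at 1 day, and 11.48, 8.13 and 9.55 at 10 days. It varied more inside the groups than between their means. Neuronal markers lay below water for 10 of 12 probes at 1 day (median -0.10) and for 9 of 12 at 10 days (median -0.06), with sums of 23655 to 25071, 22966 to 23437 and 21903 to 24280. The lowest p of that list at 1 day against water went the other way, Stmn2 at 0.11 (unadjusted limma p 0.0167). A probe of Gad2 followed at -0.25 (unadjusted limma p 0.0443). Microglial markers lay below water for 6 of 9 probes at 1 day (median -0.05) and for 7 of 9 at 10 days (median -0.04), with sums of 3534 to 3538, 3218 to 3592 and 3402 to 3461. Among them C1qc differed by -0.22 at 1 day against water (unadjusted limma p 0.00886), while C1qb differed by 0.06. Astrocyte markers lay below water for 8 of 13 probes at 1 day (median -0.04) and for 6 of 13 at 10 days (median 0.003), with sums of 26719 to 29623, 27097 to 28208 and 26660 to 27613. Among them Slc1a3 differed by -0.17 at 1 day against water (unadjusted limma p 0.0198). Oligodendrocyte markers lay below water for 6 of 11 probes at 1 day (median -0.02) and for 5 of 11 at 10 days (median 0.005). Their sums were 22863 to 24075, 21110 to 24728 and 23427 to 24036. Pericyte sums were 3297 to 3434, 3368 to 3391 and 3267 to 3516 in the same order. All probes counted here passed the filter on dim probes, and their part in the members' lower estimates at 1 day was not tested.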

How the data were processed

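Each of the 8 arrays was deposited as 1 scanner file that holds, per the file headers, a median intensity for every spot joined from 3 gains, a local background intensity and flags. RNA was amplified and labelled with Cy5 in 1 colour, per the labels' protocols. No source used here gives scan date, slide or software. The authors also deposited a table of processed intensity; its columns were linear in the spot medians, and it served as an alternative.

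The log2 intensities were computed here with limma 3.58.1 in R 4.3.3: normexp background correction with an offset of 50 on all 27456 spots, failed spots set to missing, quantile normalization, and repeated spots averaged. The local background was not subtracted, since it correlated with the spots (r 0.943 to 0.985 per array across spots). The detection limit of an array was 2 SD over the mean of its 2736 blanks, and a probe past it on 2 or more arrays was tested, which kept 21583 of 23473. Per array 86.3% to 92.1% of probes lay above that limit, and the number of arrays limits the precision. Of all probes 20690 had 1 gene symbol in the platform annotation, none had several and 2783 had none. One fit held the 8 arrays in 3 groups, with 5 residual degrees of freedom and eBayes moderation, and adjusted p-values were called at 0.05. Correlations used exact permutation tests, two-sided.

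All members were named whatever their values, with up to 2 probes of each further list by lowest unadjusted p. Members and lists were chosen with earlier results of these data known. The procedure was tested on simulated data, with independent normal values and changes set on the offset scale. The offset shrinks changes of dim probes, so that test does not cover how well changes of dim members are recovered. Alternatives covered background, offset, normalization, filter, moderation, array weights, the groups entered, a replicate block, the description number as a covariate, the authors' table and leaving out each mouse.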

Additional observations from a re-analysis of the deposited data

How the results depend on the processing

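No member passed the adjusted threshold under any of 23 other settings: of 677 member values none had an adjusted p under 0.05 (lowest 0.639) and 5 had an unadjusted limma p under 0.05. These 5 were Cldn5 at 1 day against water with the local background column (-1.03) and without mouse 2 of 1 day (-0.25), Kdr at 1 day against water with the replicate block (-0.37) and without water mouse 2 (-0.46), and Pecam1 at 10 days against water without mouse 3 of 10 days (0.14). The sign turned in 38 values, none with an interval that excluded 0. Part of the 677 could not turn: another filter or moderation, only the groups compared, or a mouse outside the comparison leaves the estimate unchanged. Over all probes the count past the threshold stayed between 0 and 2: leaving out 1 mouse gave 0 to 2 at 1 day against water, 0 to 2 at 10 days against water and 0 between the times. A trended and robust moderation gave 1 at 10 days against water and 1 at 10 days against 1 day, blank subtraction with a floor of 1 gave 1 and 1, and with a floor of 50 it gave 1 at 10 days against 1 day.

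The median change of the members at 1 day against water was -0.151 with the local background column, -0.176 in the authors' table (where the median of all probes was itself -0.055) and -0.123 with blank subtraction and a floor of 1, a setting chosen after seeing the data because the planned floor of 50 lay above dim members and left 7, 6 and 7 of the 10 with a value. At 10 days against water it was -0.053 with the floor of 50. At 10 days against 1 day it was 0.105 with the local background column, 0.089 with an offset of 16, 0.230 in the authors' table (0.080 over all probes) and 0.151 with the floor of 1. Less or no offset gives dim probes wider changes by construction. Leaving out 1 mouse moved the median between -0.078 and -0.047 at 1 day against water, between -0.023 (without mouse 2 of 10 days) and 0.037 (without water mouse 2) at 10 days against water, and between 0.020 and 0.064 at 10 days against 1 day.

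The labels do not say that sample numbers pair the mice, and not every pair correlated over 0.1: deviations of the 7 same-numbered pairs correlated at -0.025 to 0.263, 6 of them over 0.1, and those of 14 other pairs at -0.315 to 0.213, 10 of them below 0. Of the 8 arrays 7 correlated best with one of their own number. Deviations were taken from group means, so those of the 2 water mice mirror each other. Mouse 1 of 1 day had r = 0.263 with water mouse 1 and -0.263 with water mouse 2. Part of the contrast between same-numbered and other pairs was thus fixed in advance. Neither that contrast nor the count of 7 arrays can decide whether the numbers pair the mice. With the replicate block the member medians were -0.039, 0.011 and 0.050 at 1 day against water, 10 days against water and 10 days against 1 day, with 0 members past the threshold. Signal over background limits Cdh5, Tek and Tie1 most.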
